A study of Mus musculus with 6 samples.

Results

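The Hand and GATA transcription factor genes examined here were Hand1, Hand2, Gata2, Gata3, Gata4, Gata5 and Gata6, and their members in these data were the accessible chromatin regions in or near them. A region counted as a member if it overlapped the body of 1 of the 7 genes or the 100 kb on either side (mm10, the GRCm38 mouse assembly). The rule took 75 of 66679 regions by position and not by any test between genotypes. The 66679 regions merge the peak lists of both genotypes, so a member may have been listed for only 1 of them. Of the 75 members, 11 lay within 1 kb of an annotated transcription start of the gene itself (own promoter), 16 lay within 1 kb of a start of another gene only, and 48 were distal to every start.

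HAND proteins are basic helix-loop-helix factors that pair with E proteins and bind E-box DNA, and they are known for their part in heart, limb and neural crest development. HAND2 in the uterine stroma mediates the action of progesterone on the overlying epithelium. GATA factors are zinc finger proteins that bind the letters GATA. GATA2 acts with the progesterone receptor in the uterus, GATA3 is best known in T cells and trophoblast, and GATA4, GATA5 and GATA6 are best known in heart, gut and mesothelium.

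Chromatin was profiled by ATAC-seq, in which the Tn5 transposase cuts open DNA, in primary muscle cells of the mouse oviduct at day 2 (D2) of pregnancy. There were 3 libraries labelled WT and 3 labelled Pbrm1 cKO. Pbrm1 encodes BAF180, a subunit of the PBAF chromatin remodeling complex. The cKO mice of the study carry floxed Pbrm1 alleles and a cre recombinase inserted at the progesterone receptor gene, so that deletion is limited to cells that have expressed this receptor. The labels give the controls only as WT. For oviduct muscle cells the study calls them WT in its text and Pbrm1 fl/fl (floxed alleles) in a supplementary figure. Oviducts were taken from mice aged 8 to 12 weeks, digested, filtered and plated for some hours before the assay. The labels do not say whether each library came from a separate mouse, and p-values then measure only the spread between these libraries, which may be technical.

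The values were peak lists and not reads. Each library had a relaxed list of 298563 to 300000 entries in 201228 to 241237 distinct intervals, and each genotype had a list of reproducible peaks (the IDR list), and the 66679 regions were the merged intervals of both IDR lists. In every library the regions were ranked by their best −log10 p, with rank 1 the strongest, and the rank score was log2(66679/rank). Depth was not given by the lists, and the pile-up at the typical entry, recovered from its fold and p, had a median of 8 to 15 Tn5 cuts, lowest in WT replicate 3. Of the muscle markers, all 5 had a region at their promoter (Acta2, Myh11, Cnn1, Tagln, Des), whereas 6 of 7 epithelial markers (Epcam, Krt8, Krt18, Cdh1, Pax8, Ovgp1) had none and Foxj1, a ciliated cell factor, had 1. All 4 endothelial, 2 of 4 immune, 2 of 4 mesothelial and 3 of 4 fibroblast markers had such a region. By mean rank the promoters of Foxj1 (4389) and of the mesothelial marker Wt1 (8373.5) stood above all 5 muscle markers. Those ran from 19388 (Acta2) to 46897 (Cnn1). The share of each cell type was not measured. The summed rank score of the muscle list ran from 6.08 to 7.08 in WT and from 5.69 to 7.10 in cKO, and for all 6 lists the ranges of the genotypes overlapped. The deletion of Pbrm1 cannot be seen in peak lists.

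The 7 genes sat in neighborhoods that held from 3 to 23 regions. The Gata4 window had 23, the Gata2 window 13, the Gata5 window 11, the Hand1 window 10, the Hand2 window 8, the Gata3 window 7 and the Gata6 window 3. Over the windows of all 21938 protein-coding genes the median was 11 regions, with quartiles of 5 and 17. The Gata4 window held more regions than 90.1% of these genes and the Gata6 window held fewer than 79.5% of them, and the other 5 genes lay between. Window length grows with the gene body, and the Gata4 window also spans Ctsb, Fdft1 and Neil2.

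**Figure D1:**
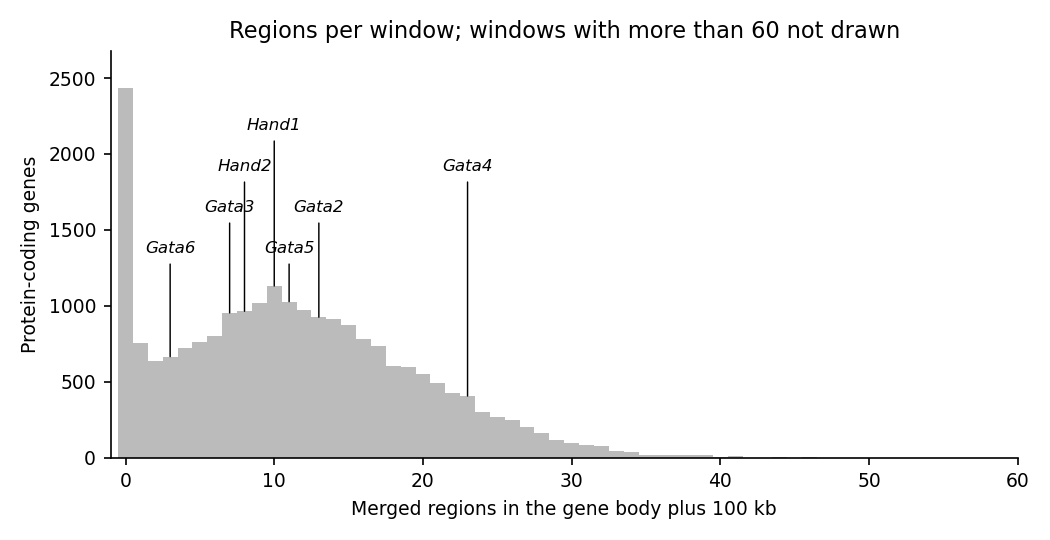
Number of merged regions in the window of each protein-coding gene (x axis) against the number of genes with that many (y axis), with the 7 Hand and GATA genes marked by lines. Gata6 (3 regions) lies near the low end and Gata4 (23 regions) near the high end, while the other 5 genes stand close to the median of 11.

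Of the 7 genes, 6 had at least 1 region at a promoter of their own, and Hand1 had none. The order of the strongest own-promoter regions by mean rank was Gata3, Gata2, Gata6, Hand2, Gata4 and Gata5, and the ranges of every pair of neighbors in this order overlapped over the 6 libraries. Across the 13772 protein-coding genes with a promoter region, 42.1% were ranked better than Gata3, 64.0% better than Gata2, 67.9% better than Gata6, 75.0% better than Hand2, 88.3% better than Gata4 and 95.9% better than Gata5. The promoters of these factors were thus of middle to low rank among promoters with a region.

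**Figure D2:**
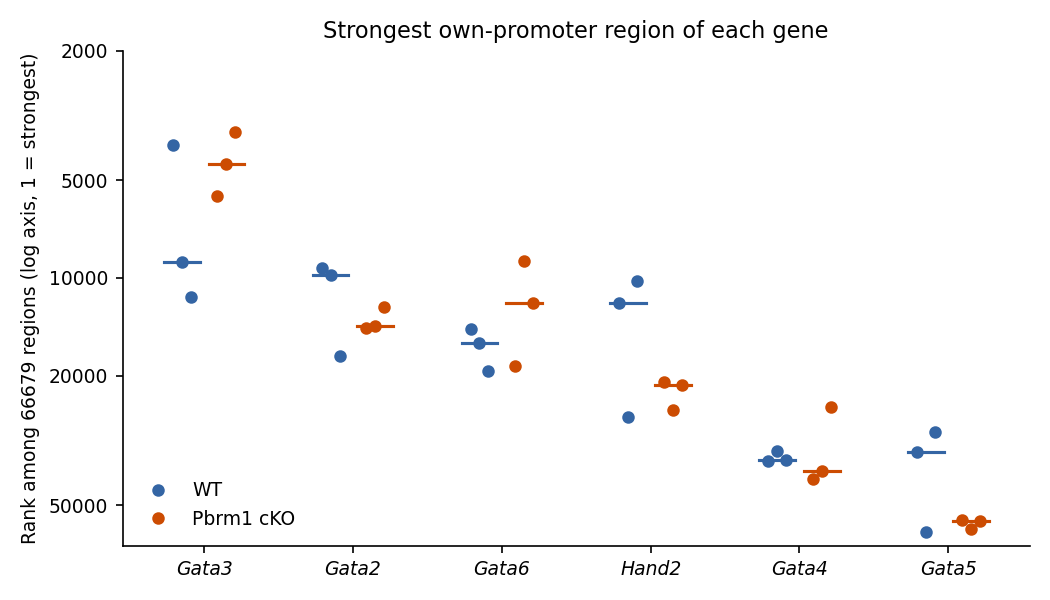
Rank of the strongest own-promoter region of each gene in each library (log axis, stronger regions at the top), with WT in blue, Pbrm1 cKO in orange and lines at the group medians. Gata3 ranks from 3549.5 to 11438.5 and Gata5 from 29794.5 to 60491, and the genotypes overlap at every gene.

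No member region passed the threshold between the genotypes. The comparison used limma on the rank scores of all 66679 regions, with Benjamini-Hochberg adjusted p under 0.05 as the threshold, and 0.0675% of all regions were called, 0.039% higher and 0.0285% lower in cKO. Among the 75 members 0 were called in either direction, and the smallest adjusted p was 0.106. At an unadjusted p under 0.05 there were 10 members, 2 higher and 8 lower, where 15.9% of all regions stood under that value (7.51% higher and 8.37% lower). On a normal-score scale limma also called 0 members, with a smallest adjusted p of 0.0503, while it called 0.993% of all regions higher and 1.33% lower. The median difference, cKO minus WT, was 0.02 over the members and 0.00055 over all regions on the log2 rank scale.

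The genotypes did not overlap at 3 member regions that were higher and 7 that were lower in cKO, beside 10.6% and 10.9% of all regions. In the IDR lists, 53 members were present for both genotypes, 9 for WT alone and 13 for cKO alone. That is 12.0% and 17.3% of the members, beside 13.4% and 17.4% of all regions. In each of these counts the 75 regions stood close to the background or below it. A region in 1 list alone entered the set through the genotype where it was stronger, so its direction was largely fixed by that list and supports nothing. Of all regions in the WT list alone 88.7% were lower in cKO, 38.0% without overlap, and of those in the cKO list alone 29.0% were higher without overlap. A region open in fewer cells and a region less open in each cell cannot be told apart in bulk libraries.

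**Figure D3:**
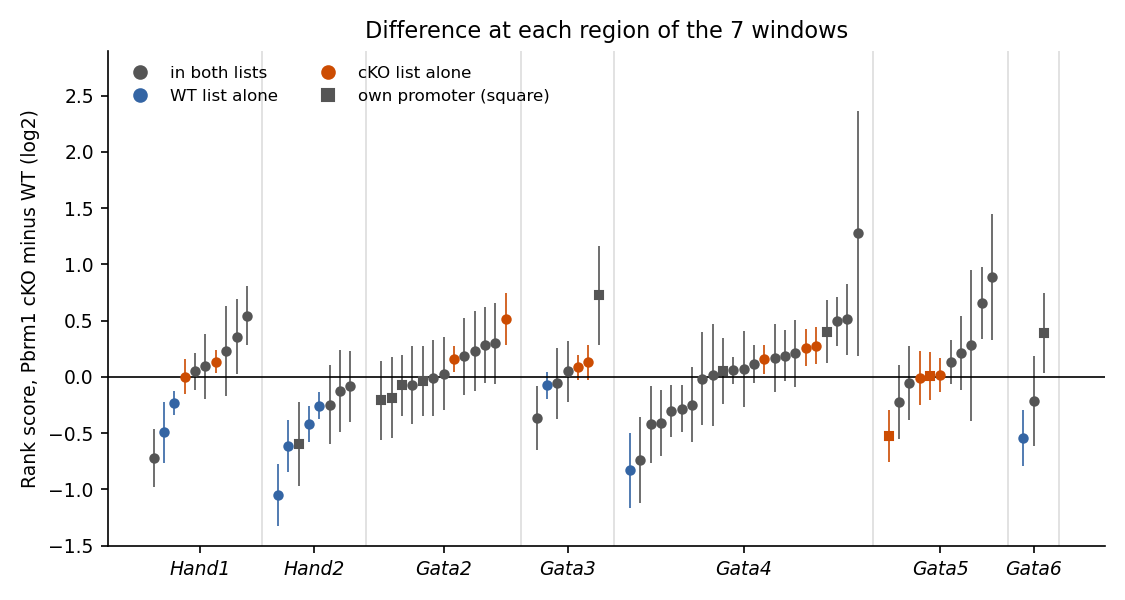
Difference in rank score, Pbrm1 cKO minus WT, at each of the 75 regions (y axis, log2 scale), grouped by gene and sorted within it, with the standard error of the limma fit as bars. All 8 Hand2 regions lie below 0 and those of the other genes lie on both sides.

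Hand2 had all 8 of its regions at a lower mean rank score in cKO, with a median difference of −0.34. Among all regions 50.0% had a difference below 0. Of the 8 regions, 4 were in the WT list alone and 0 in the cKO list alone, beside 0.993% of 14199 protein-coding gene windows with at least 8 regions that held 4 or more of the former and 0 of the latter. The 4 regions in the WT list alone were in the set through WT, and the 4 in both lists were lower in the mean but overlapped between genotypes. In a count made after these values were seen, 19 of these windows, or 0.134%, had every region lower, a count that includes regions in the WT list alone. The limits of 8 regions and of 4 in the WT list alone are the counts of Hand2 itself, so neither share is a test. Many of these windows hold more than 8 regions and are less easily lower at every one, so 0.134% is not the share for windows of 8. Neighboring windows share regions, and none of the 8 passed the threshold. Every region lay at the start of Hand2 or downstream of its promoter, and the 100 kb upstream, which contains the divergent noncoding gene Hand2os1, held 0.

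The Hand2 promoter region (chr8:57320792-57321264, over the first exon and its UTR, shared with the start of Hand2os1) ranked 11912, 26804 and 10209.5 in the WT libraries. Its ranks in cKO were 20895.5, 25422 and 21316.5. The promoter ranked best in WT replicates 1 and 3 and worst in WT replicate 2, so that the genotypes overlapped. The difference was −0.60 (SE 0.37, n = 3 per genotype, adjusted p = 0.456 by limma), and it was −1.03 without WT replicate 2 and −0.33 without WT replicate 3.

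The strongest distal region of the Hand2 window lay 7.6 kb downstream of the start, in intergenic DNA at chr8:57328259-57328835. It ranked 7708, 15102 and 10690.5 in WT and 12310, 12673 and 13327.5 in cKO, and the genotypes overlapped. Its difference was −0.25 (SE 0.35, adjusted p = 0.787 by limma), and it was −0.49 without WT replicate 2 and −0.0065 without WT replicate 1.

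The lowest p of the 75 regions belonged to the promoter of 5033428I22Rik, a long noncoding RNA gene 20.1 kb downstream of the Hand2 start (chr8:57340768-57341380, listed in WT alone). This region ranked 26839, 28769.5 and 21109 in WT and 62342.5, 48268.5 and 47990 in cKO. All 3 cKO libraries stood below all 3 WT libraries, as at 38.0% of the regions in the WT list alone. The pile-up recovered at its strongest entry was 34, 28 and 21 cuts in WT and 12, 16 and 16 cuts in cKO. These cuts come from the same p that gave the ranks and are not scaled for depth, so they are no separate evidence. The mean rank score was 1.39 ± 0.23 (SD, n = 3) in WT and 0.35 ± 0.22 in cKO, a difference of −1.05 (SE 0.28), with an unadjusted p of 0.00143 and an adjusted p of 0.106 by limma. Leaving out 1 library at a time, the difference ran from −1.14 to −0.92.

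The other 3 Hand2 window regions in the WT list alone were weaker. One lay next to the strongest distal region, 8.0 kb from the start, and ranked 47765, 48546 and 25860.5 in WT and 63754, 53195 and 63407 in cKO. Another, at the promoter of the noncoding gene Gm34030 13.5 kb from the start, ranked 36957, 50570 and 54648 in WT and 63649.5, 65066 and 58501.5 in cKO. The last, in an intron of Gm34099 89.1 kb from the start, ranked 59319, 57540.5 and 46416.5 in WT and 65347 and 62280.5 in cKO replicates 1 and 2, and had no entry in cKO replicate 3. These regions were in the set through the WT list, and at each the genotypes did not overlap. The differences were −0.61, −0.42 and −0.26, with adjusted p of 0.202, 0.215 and 0.304 by limma. The regions 32.7 kb and 63.1 kb downstream were in both lists, overlapped between genotypes and differed by −0.08 and −0.12.

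**Figure D4:**
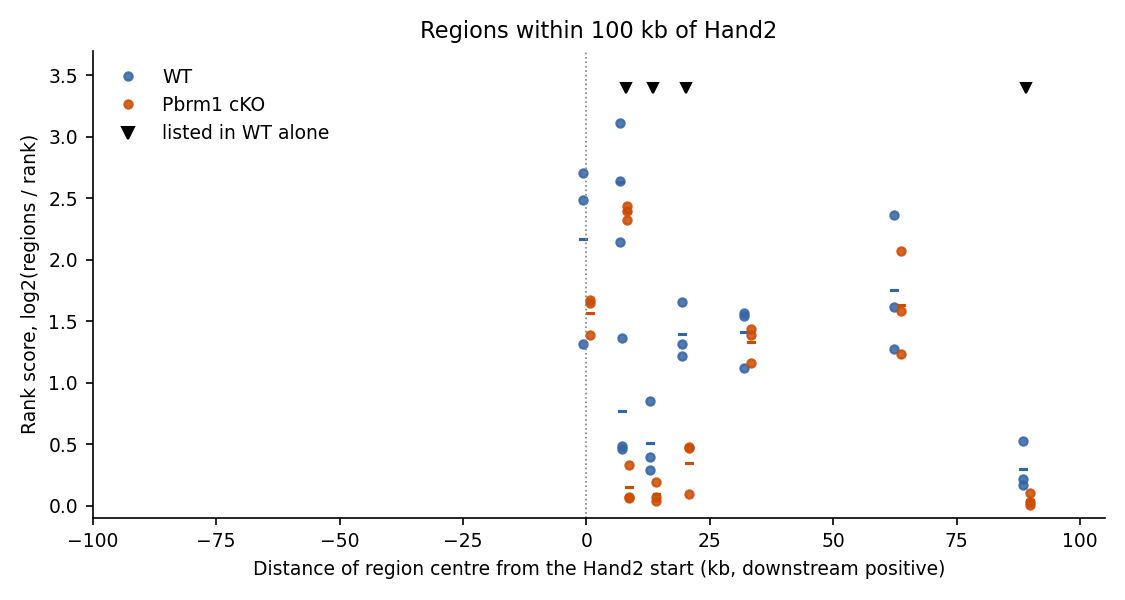
Rank score in each library (y axis, dots, with lines at the group means) of the 8 regions of the Hand2 window by distance of their centers from the Hand2 start (x axis, kb). No region lies upstream, and at the 4 regions marked as listed in WT alone every cKO dot lies below every WT dot, a direction that their choice through the WT list favors.

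The sequences at the Hand2 promoter, the strongest distal region and the 5033428I22Rik promoter are shown because they hold the strongest and the most separated values of the window. All run 5′ to 3′ on the plus strand of GRCm38. Capitals mark 2 kinds of site searched on both strands. The first, called GATA-type here, has the letters AGATAA, with TGATAA counted as well. The second is the E-box CANNTG, the kind of site that HAND dimers bind. The promoter stretch is the 250 bases before the start from the RefSeq promoter table, and the regions are their central 200 bases.
Hand2 promoter, chr8:57320733-57320982: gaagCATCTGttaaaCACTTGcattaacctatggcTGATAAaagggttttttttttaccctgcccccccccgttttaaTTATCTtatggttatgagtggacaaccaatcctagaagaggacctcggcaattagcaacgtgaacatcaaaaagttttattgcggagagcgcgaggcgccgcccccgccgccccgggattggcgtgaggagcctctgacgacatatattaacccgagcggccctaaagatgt
Hand2 strongest distal region, chr8:57328447-57328646: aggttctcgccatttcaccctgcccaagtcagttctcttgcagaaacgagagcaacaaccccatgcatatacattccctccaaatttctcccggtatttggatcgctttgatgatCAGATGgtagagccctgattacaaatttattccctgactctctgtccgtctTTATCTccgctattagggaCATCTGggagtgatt
5033428I22Rik promoter, chr8:57340974-57341173: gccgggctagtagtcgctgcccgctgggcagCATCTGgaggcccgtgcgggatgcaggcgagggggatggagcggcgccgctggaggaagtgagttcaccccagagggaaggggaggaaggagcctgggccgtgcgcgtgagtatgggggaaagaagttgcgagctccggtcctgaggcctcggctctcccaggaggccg
The Hand2 promoter stretch held 2 GATA-type matches and 2 E-boxes, the distal region 1 and 2, and the 5033428I22Rik promoter 0 and 1. In the promoter stretch both E-boxes and the TGATAA lie before the ranked region, which begins at 57320792. Only the TTATCT lies inside it. GATA-type letters were in 16.6% of 32851 RefSeq promoters over the same 250 bases and in 14.2% of all regions over 200 bases, and E-box letters in 66.2% and 62.4%. Of the 75 members, 11 held GATA-type letters (14.7%) and 42 an E-box (56.0%). The form CATCTG was in 9 members (12.0%, beside 15.8% of all regions). The letters TGANTCA, the AP-1 site, were in 23 members (30.7%, beside 27.2% of all regions). No motif set the member regions far from the rest.

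At this locus the study compared cKO with WT cells of the oviduct at an enhancer site in Hand2os1 that it describes in the uterus. For oviduct muscle cells it reports accessibility at this site and Hand2 RNA as similar between the genotypes. PCR primers of the study placed the uterine site at chr8:57313095-57313303, 7.8 kb upstream of the Hand2 start in an intron of Hand2os1, and the branchial arch site at chr8:57314285-57314506, 6.6 kb upstream in an exon of Hand2os1. Both primers of each pair matched the genome. At the uterine site they mark only the stretch amplified by PCR, which is shorter than the enhancer stretch deleted in mice of the study. The sequence of the uterine site is shown because the relaxed lists had only weak entries there. It held neither AGATAA nor TGATAA on either strand and no E-box, so no letters are capitalized. It does hold ctatct, which reads AGATAG on the other strand, a form of the GATA site that was not searched. In uterine stromal cells, not the cells profiled here, the study reports GATA4 bound at this site, and less of it without PBRM1. The letters thus do not tell whether a GATA factor is present there.
Hand2 uterine site, chr8:57313095-57313303: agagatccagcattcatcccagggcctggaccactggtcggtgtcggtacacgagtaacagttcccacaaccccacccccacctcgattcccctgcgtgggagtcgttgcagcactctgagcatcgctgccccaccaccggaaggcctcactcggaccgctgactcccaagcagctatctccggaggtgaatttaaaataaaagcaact

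No IDR region overlapped the uterine site. Its best −log10 p was 5.43 in WT replicate 1, 9.66 in WT replicate 2, 5.29 in cKO replicate 1 and 3.56 in cKO replicate 2, and there was no entry in WT replicate 3 or cKO replicate 3. These entries rested on 10, 12, 8 and 6 recovered cuts. Entries were present in 2 of 3 libraries of each genotype. Both WT entries were above both cKO entries, but WT replicate 1 and cKO replicate 1 were close (5.43 and 5.29), and all were weak. No test was made there, since the site is in no merged region. The branchial arch site had entries in WT replicates 1 and 2 (4.36 and 4.68) and in cKO replicates 1, 2 and 3 (4.41, 4.24 and 5.02), and it was likewise without a region. The cardiac enhancer site was placed by 1 primer only, 2.9 kb upstream, and had no entry in any library.

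Hand1 had no region at its own promoter. At the upstream one of its 2 annotated starts an entry was listed in WT replicate 1, cKO replicate 1 and cKO replicate 2 only, with −log10 p of 3.03, 3.58 and 3.11, and the other start had none. The 5 promoter regions of its window belonged to other genes, 4 of them to Sap30l and 2010001A14Rik. The strongest distal region, 79.0 kb upstream of Hand1 in intergenic DNA (chr11:57911505-57912211), ranked 21369.5, 21855.5 and 18714.5 in WT and 12060, 16894 and 20338.5 in cKO, with overlap.

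The smallest p of the Hand1 window lay a few kilobases further, at 81.6 kb upstream (chr11:57914177-57914597, in both lists). It ranked 29654.5, 31593 and 28838 in WT and 51922.5, 55371 and 42048.5 in cKO. Every cKO library stood below every WT library, and the difference was −0.72 (SE 0.26, adjusted p = 0.189 by limma). The difference at the region 79.0 kb upstream had the opposite sign, 0.36 (SE 0.33, adjusted p = 0.642 by limma), but there the genotypes overlapped. No direction is read from that value, and neither region passed the threshold.

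Gata2 had 4 own-promoter regions, all in both lists and all downstream of its first start. At that first start each library had an entry, with −log10 p from 5.24 to 12.2, but no IDR region. The strongest, 9.6 kb from the first start in an intron and near a later start (chr6:88203389-88203629), ranked 9325, 9785 and 17414.5 in WT and 14228, 14055 and 12253 in cKO. WT replicate 3 was the worst and WT replicate 1 the best, and the difference was −0.21 (SE 0.35, adjusted p = 0.828 by limma), or −0.50 without WT replicate 3 and −0.05 without WT replicate 1.

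The strongest distal Gata2 region lay 57.6 kb upstream in intergenic DNA (chr6:88135959-88136671) and ranked 12270, 22254 and 14137.5 in WT and 11862, 17389.5 and 11584 in cKO, with overlap. It was among 7 distal regions spread over the upstream side of the window. The smallest p there belonged to a weak region 77.2 kb upstream, listed in cKO alone, that ranked 43867 and 27471 in cKO replicates 1 and 2 but 65638 in cKO replicate 3. In WT it ranked 58543 and 60588 in replicates 1 and 2 and had no entry in replicate 3. The genotypes overlapped, the difference was 0.52 (SE 0.23, adjusted p = 0.286 by limma), and it ran from 0.19 to 0.82 when 1 library was left out.

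Gata3 had the strongest own promoter of the 7 genes. It lay at an internal start, 10.5 kb into the gene (chr2:9879145-9879899, intronic), and ranked 3913, 8940.5 and 11438.5 in WT and 5605, 4450.5 and 3549.5 in cKO. The cKO libraries were close to each other and WT replicate 1 was among them, so that the genotypes overlapped. The difference was 0.73 (SE 0.44, adjusted p = 0.438 by limma), the smallest p of this window. It was 1.18 without WT replicate 1 and 0.41 without WT replicate 3. The outermost Gata3 start had only weak entries, with −log10 p from 3.76 to 10.3, and no IDR region. The strongest distal region, 71.6 kb downstream of the outermost start (chr2:9818084-9818729), ranked from 20109.5 to 28423.5 in WT and from 24190 to 27458.5 in cKO.

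Gata4 had 2 own-promoter regions, at its outermost start and at an internal start 26.1 kb into the gene. The first (chr14:63271461-63271912, first exon and UTR) ranked 36724, 34109 and 36361.5 in WT and 41475, 39335 and 24966.5 in cKO. WT libraries lay within the range of the cKO libraries, and the difference was 0.05 (SE 0.30, adjusted p = 0.955 by limma). The strongest distal region of the window was in an intron of Ctsb, a lysosomal protease gene, 139.4 kb from the Gata4 start (chr14:63131808-63132816), with ranks of 3381 to 7361.5 in WT and 4625 to 6183 in cKO.

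The smallest p of the Gata4 window was at its far edge, in intergenic DNA beyond Ctsb (chr14:63103903-63104738, listed in WT alone). It ranked 34813, 18132.5 and 25278.5 in WT and 63011.5, 42384 and 33637 in cKO. The best cKO library overlapped the worst WT library, and the difference was −0.83 (SE 0.33, adjusted p = 0.234 by limma). Of the 23 regions of the window 15 were higher and 8 lower in cKO, with a median difference of 0.07.

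Gata5 was the only one of the 7 with its own promoter in a single IDR list. Both of its promoter regions were in the cKO list alone. The one at the start (chr2:180334407-180335198, in an intron of the antisense gene Gata5os) ranked 34433.5, 60491 and 29794.5 in WT and 55554, 59281 and 56016 in cKO. WT replicates 1 and 3 thus ranked it better than any cKO library, while WT replicate 2 ranked it worst. The difference was −0.52 (SE 0.23, adjusted p = 0.285 by limma), the smallest p of this window and opposite in sign to its list membership. It was −0.83 without WT replicate 2 and −0.32 without WT replicate 3. The second, 1.1 kb upstream, ranked from 36272 to 62022 in WT and from 39178.5 to 59737.5 in cKO, a difference of 0.01.

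The strongest distal region of the Gata5 window, 83.2 kb downstream of the start (chr2:180251343-180251563), ranked from 15366.5 to 24605 in WT and from 17880 to 20051.5 in cKO. The window also held the promoters of Lama5, Rps21 and Cables2. The pattern of the Gata5 promoter over the 6 libraries was close to that of Hand2, with a Pearson correlation of 0.990 in rank score over 6 libraries that share their depth and ranking. Both promoters ranked best in WT replicates 1 and 3 and worst in WT replicate 2. Among 13751 other protein-coding genes, the 3 most like Hand2 were Rasgrp1 (0.997), Gata5 and Cpq (0.988). The top of a search over so many genes with 6 values each is high by selection, and no test was made. The correlation with Hand2 was −0.12 for Gata4, −0.22 for Gata2, −0.24 for Gata3 and −0.48 for Gata6.

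Gata6 had the fewest regions, 3. Its own promoter (chr18:11052288-11053425, shared with the noncoding gene 1010001N08Rik) ranked 14388, 15844 and 19358.5 in WT and 18683, 8870 and 11912 in cKO, with overlap, and differed by 0.39 (SE 0.36, adjusted p = 0.642 by limma), or by 0.67 without cKO replicate 1 and 0.14 without cKO replicate 2. The distal region 36.1 kb upstream, in an intron of 1010001N08Rik (chr18:11015578-11016312), ranked 4761.5 to 9894 in WT and 6092 to 11802 in cKO. By rank it was stronger than the promoter in every library except cKO replicate 2, where it ranked 11802 and the promoter 8870. The region 5.4 kb upstream, listed in WT alone, ranked 28852.5, 39335 and 40885 in WT and 63371, 39246.5 and 57766 in cKO. The cKO replicate 2 library stood among the WT libraries, and the difference was −0.54 (SE 0.25, adjusted p = 0.296 by limma).

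The relaxed lists gave a second reading of each window, the number of distinct intervals listed in each library. Hand2 had 38, 33 and 32 intervals in WT and 28, 22 and 29 in cKO. Gata6 had 24, 25 and 35 in WT and 17, 23 and 22 in cKO, and Gata4 had 59, 55 and 60 in WT and 63, 66 and 74 in cKO. At these 3 loci the genotypes did not overlap, lower in cKO at Hand2 and Gata6 and higher at Gata4, beside 7.17% of protein-coding gene windows that were lower and 3.79% that were higher without overlap. Gata4 lies on chromosome 14, 32.1 Mb from Pbrm1, and linkage to the floxed alleles was not tested. The median difference over all windows was −0.67 intervals. WT replicate 3 listed the most distinct intervals, 241237, against 201228 to 209436 in the other libraries. The exact permutation test of 3 libraries against 3 cannot give a p below 0.1, and none is given.

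Among the 100000 best intervals of each library, Hand2 had a lower count in cKO (11, 11 and 9, against 18, 15 and 18 in WT) and Gata4 a higher one (35, 35 and 37, against 32, 33 and 29), while Gata6 overlapped. At that limit 3.96% of all windows were lower and 6.26% higher without overlap. With intervals of q of 0.05 or less alone, only Gata4 stayed apart, and Hand2 had 37, 33 and 28 in WT and 28, 21 and 25 in cKO. With 50 kb in place of 100 kb, Hand2 overlapped (31, 23 and 25 in WT, 21, 19 and 24 in cKO). There Gata2 and Gata6 were lower and Gata4 was higher without overlap. No share over all windows is given for these 2 settings, so the separations there cannot be set against a background. The Hand2 intervals were mostly downstream, 25 to 29 per library in WT and 16 to 22 in cKO, with 3 to 6 upstream in WT and 2 to 5 in cKO. At Hand1, Gata2, Gata3 and Gata5 the genotypes overlapped, with mean counts of 35.0 ± 5.57, 36.0 ± 2.65, 29.7 ± 0.58 and 40.3 ± 9.07 (SD, n = 3) in WT and 30.7 ± 7.57, 31.0 ± 2.00, 30.3 ± 7.77 and 33.3 ± 0.58 in cKO.

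**Figure D5:**
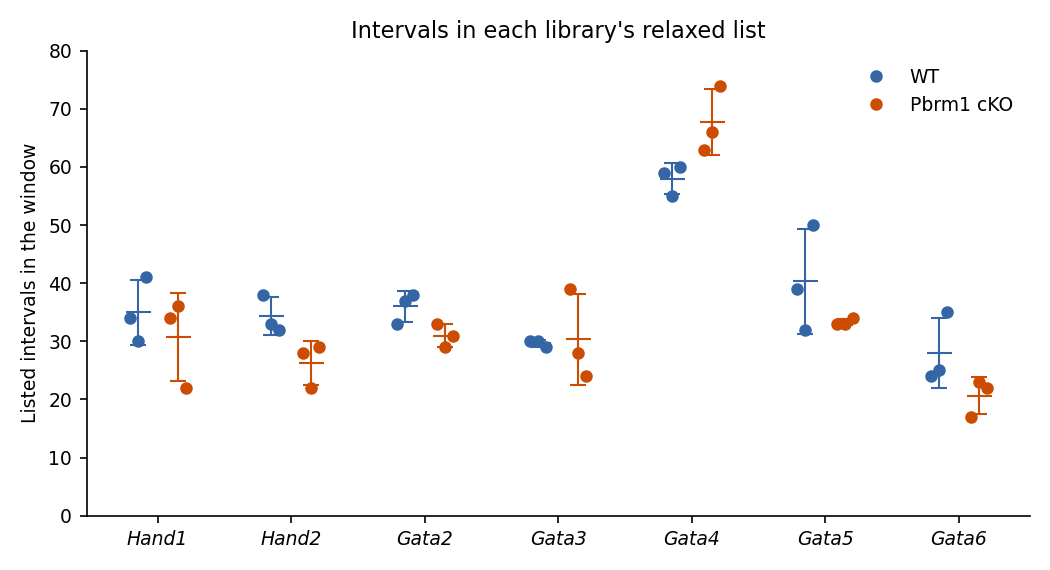
Distinct intervals of the relaxed list in each window (y axis) by gene, with 1 dot per library and the mean and SD of 3 libraries as lines. Hand2 and Gata6 have fewer intervals in every Pbrm1 cKO library than in any WT library, and Gata4 has more.

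The partners of these factors were read from the promoters of 26 genes. They were GATA relatives and cofactors (Gata1, Trps1, Zfpm1, Zfpm2, Lmcd1), the LIM-domain complex (Tal1, Lmo2, Ldb1), E proteins (Tcf3, Tcf4, Tcf12), Twist factors, Id inhibitors, muscle partners (Nkx2-5, Tbx5, Tbx20, Mef2c, Srf), the coactivator gene Ep300 and the BMP ligands Bmp2, Bmp4 and Bmp7. Of the 26, 23 had at least 1 promoter region, 45 regions in all, and Gata1, Nkx2-5 and Tbx5 had none. Of the 45 regions 22 were higher and 23 lower in cKO, 0 passed the threshold, 5 had an unadjusted p under 0.05 (2 higher and 3 lower), or 11.1% beside 12.4% of all promoter regions, and the median difference was −0.0061.

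Twist2, a helix-loop-helix factor that can pair with E proteins, had the smallest p among the regions that were higher. Its promoter ranked 29911, 31202.5 and 13437 in WT and 16027.5, 9589.5 and 11596 in cKO, where WT replicate 3 lay among the cKO libraries, and differed by 0.94 (SE 0.38, adjusted p = 0.236 by limma). Id3, which binds E proteins and keeps them from DNA, had the smallest p among those that were lower. That region, the weaker of 2 at its promoter, ranked 50469, 45426 and 54722 in WT and 66060, 62673 and 64864 in cKO, without overlap, and differed by −0.37 (SE 0.12, adjusted p = 0.165 by limma). The stronger Id3 region ranked 8918, 6098 and 8694 in WT and 16468, 11072 and 9928 in cKO. It was also lower without overlap, as were 10.9% of all regions, and differed by −0.65 (SE 0.36, adjusted p = 0.396 by limma).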

How the data were processed

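ATAC-seq peak lists of 6 libraries, 3 per genotype, were analysed. The authors trimmed (cutadapt), aligned to GRCm38 (Bowtie2) and called peaks (MACS2), per the labels, and made 1 IDR list per genotype from its libraries. In the deposited lists column 7 is a fold ratio over local background, columns 8 and 9 are −log10 p and −log10 q, and column 5 is a score. No entry had a −log10 p under 2.00.

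IDR intervals that overlapped by at least 1 base were merged, and GENCODE M21 gave starts and gene bodies. Regions without an entry shared the mean of the lowest ranks. Rank scores were compared with limma 3.58.1 in R 4.3.3 over all regions, tested on simulated data. Ranks carry no absolute accessibility. Each gene's named regions were the strongest own promoter, the strongest distal region and the smallest p, with any past the threshold or with an own promoter in 1 list alone. The members and lists were chosen with earlier results of these data known. Of the 7 genes, 4 matched the RefSeq promoter table. Alternatives were other scales, ranking by fold, filters, windows, left-out libraries and a replicate block.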

Additional observations from a re-analysis of the deposited data

How the results depend on the processing

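The number of member regions was 46 with 50 kb, 15 in the gene bodies alone and 35 in the stronger part of each IDR list. In that stronger part 2 members were in the WT list alone and 4 in the cKO list alone, and with 50 kb 6 were in the cKO list alone. Under the main scale no alternative brought a member past the threshold. The replicate numbers did not pair the libraries (correlations of deviations of −0.0029, −0.055 and 0.0091), and with the replicate block limma called 0 members higher and 0 lower. The replicate block with normal scores called 1 lower, the 5033428I22Rik promoter in the Hand2 window (−1.20, adjusted p = 0.0453), where 1.23% of all regions were called lower. Normal scores with 1 library left out, an alternative added after the data were seen, gave 0 to 1 lower and 0 higher. The 1 was a region of the Sap30l promoter in the Hand1 window without WT replicate 3, where 869 of the 66679 regions were called lower. The median difference of the members ran from −0.01 to 0.07 with 1 library left out and was −0.05 with 50 kb. The summed difference in listed intervals over the 7 loci, −21.3 (cKO minus WT), was 5.67 with q of 0.05 or less and −31.0 to −9.50 with 1 library left out. Of the 8 Hand2 regions 7 were lower when ranked by fold or without WT replicate 1, and 6 without cKO replicate 3. Over all regions limma called 45 with log2 ranks, 1552 with normal scores, 4 when ranked by fold, 131 with the replicate block and 1418 with the block and normal scores. Depth limits the weak regions, which rest on few cuts, and 3 libraries per genotype limit every comparison.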
